A study of Homo sapiens with 48 samples.

Results

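The MYC and MAX network is a set of basic helix-loop-helix leucine zipper transcription factors. The 10 genes described here are the MYC genes MYC, MYCN and MYCL, their shared partner MAX, and the MAX partners that do not belong to the MYC group: MXD1, MXD3, MXD4, MXI1, MNT and MGA. They were chosen by name, and all 10 were among the 58870 genes counted. MYCN had between 0 and 4 reads in a library and did not pass the filter on low counts, so 9 of the 10 were tested in each experiment.

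RNA was sequenced from 48 samples of 3 established uveal melanoma cell lines, 92-1, MEL202 and MP41, all labelled as wild type in genotype. Each line received FHT-1015, which inhibits SMARCA4 and SMARCA2, the ATPases of BAF chromatin remodelling complexes, or the solvent DMSO, for 4 or 24 h. Line 92-1 also received IDE196, an inhibitor of protein kinase C (PKC), for 4 or 24 h, with a separate set of DMSO samples. The 16 groups held 3 replicates each and formed 4 experiments of 12 samples, named here by line and drug. Drug doses are not given in the sources used here. The labels call the replicates biological and say no more about how they were made, so the p-values measure the spread between these samples. Each experiment stands for 1 line, and every fold change compares a drug with the DMSO samples of its own experiment at the same time.

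MYC proteins bind DNA as dimers with MAX at the E-box CACGTG and raise transcription of genes for ribosome production, nucleotide synthesis and cell growth. The MXD proteins, with MXI1 and MNT, also dimerise with MAX at E-boxes but recruit the SIN3 histone deacetylase complex and repress, and MGA brings MAX into a Polycomb complex, PRC1.6. Uveal melanoma is usually driven by activated G proteins that signal through PKC to the MAP kinases, and gain of the chromosome arm that carries MYC is common in it.

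Because members and targets of this network are themselves bound at E-boxes, the 250 bases upstream of RefSeq start sites were searched for CACGTG, which is its own reverse complement, so that both strands are read at once. Of the 9 members with a promoter in the RefSeq table (GRCh38.p14), 2 held it, MXD4 and MNT. It was present in at least 1 promoter of 2110 of 27305 genes in the table (7.7%) and in 2228 of 35116 promoters (6.3%). MYC has no entry there. WDR5, a cofactor of MYC whose transcript had one of the patterns most like that of MYC (given with the target genes), held one as well. The 3 stretches are shown 5′ to 3′ on the strand of the gene, with the E-box in capitals.
MXD4, chr4:2262312-2262359, minus strand: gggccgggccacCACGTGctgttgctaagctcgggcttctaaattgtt
MNT, chr17:2401218-2401283, minus strand: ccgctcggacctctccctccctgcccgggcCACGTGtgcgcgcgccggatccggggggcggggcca
WDR5, chr9:134136255-134136320, plus strand: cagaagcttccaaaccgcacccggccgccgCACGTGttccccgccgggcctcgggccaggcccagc
The E-box began 238 bases upstream of the start in MXD4, 193 in MNT and 136 in WDR5. A match describes the sequence and does not show binding. The members lie apart in the genome, with MYCN and MXD1 the only 2 of the 10 on 1 chromosome: MAX at chr14:65006174-65102695, MYCN at chr2:15940564-15947007, MXD1 at chr2:69897688-69942945, MXD3 at chr5:177301461-177312757, MXD4 at chr4:2247432-2262294, MXI1 at chr10:110207605-110287365, MNT at chr17:2384060-2401118, MGA at chr15:41621224-41773081 and MYCL at chr1:39895426-39902256 (GENCODE release 29, GRCh38).

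Each library held between 11394088 and 32317711 reads in genes, spread over 17592 to 27150 genes. The smallest gene number was that of a MEL202 library, the second FHT-1015 replicate at 4 h. The biological coefficient of variation, the spread between replicates that edgeR estimates, was 0.117 and 0.112 for line 92-1 (FHT-1015 and IDE196), 0.217 for MP41 and 0.294 for MEL202, so the same fold change was harder to call in the latter 2 lines. The lines carried the transcripts of their lineage: 10 melanocyte lineage markers summed to between 2902 and 22611 CPM (TMM-normalised counts scaled to library size), against at most 6.2 for leukocyte, 4.5 for endothelial, 23.5 for epithelial and 45.2 for fibroblast markers. All 10 of the 10 melanocyte markers fell after 24 h of FHT-1015 in each line, while 2 rose and 2 fell with IDE196 at 24 h. Of all genes, 31.4%, 10.1% and 18.7% were called lower in 92-1, MEL202 and MP41, and 29.2%, 8.69% and 17.4% higher. With IDE196 28.7% were called higher and 29.4% lower, so the 2 and 2 of 10 do not stand above the background. The sum of 6 fibroblast markers was higher with FHT-1015 at 24 h without overlap in 2 lines, going from between 6.66 and 8.39 CPM in DMSO to between 33.9 and 42.5 in MEL202 and from between 3.35 and 4.01 to between 10.8 and 12.1 in 92-1, while it overlapped in MP41 (30.2 to 43.2 against 33.3 to 43.2). With IDE196 at 24 h it was also higher without overlap, from between 6.68 and 11.1 CPM to between 11.5 and 21.0 CPM. Low sums of other markers stood apart at 24 h as well. In MEL202 the endothelial sum went from 0.624 to 1.93 CPM in DMSO to 2.04 to 4.47, and the epithelial sum from 0.936 to 1.66 to 1.70 to 6.07. With IDE196 the endothelial sum went from 0 to 0.170 CPM to 0.324 to 0.635. Of the 6 fibroblast markers, only 2 were tested in 92-1 with FHT-1015 at 24 h, and edgeR called 1 higher and 1 lower. In MEL202 and with IDE196 1 of 4 tested was called at 24 h, higher in both, and in MP41 0 of 5. The most abundant of the 6 were COL3A1 in MEL202 (3.14 to 38.1 CPM over its 12 libraries) and COL1A1 in 92-1 (1.96 to 11.5 CPM in the FHT-1015 set). Both are collagen genes, and DCN reached 0.312 and 0.246 CPM there. The part of these changes in the results below was not tested.

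In DMSO, MYC was the most abundant network transcript in every line, several times above any partner. Levels of different genes are compared as RPKM, which divides by exon length as well as library size, given as mean and SD over 6 DMSO samples. MYC stood at 116 ± 14.0 RPKM in the FHT-1015 set of 92-1, 109.7 ± 21.5 in its IDE196 set, 88.6 ± 11.6 in MEL202 and 53.7 ± 7.77 in MP41. The other MYC genes were low: MYCL lay at 0.296 ± 0.0960, 0.383 ± 0.0884, 0.564 ± 0.113 and 0.934 ± 0.222 RPKM in the same order, and MYCN had at most 2 reads in any DMSO library. In every set MYC was therefore nearly the whole of the MYC gene output, and MYCL had the lowest mean of the 9 tested members.

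**Figure D1:**
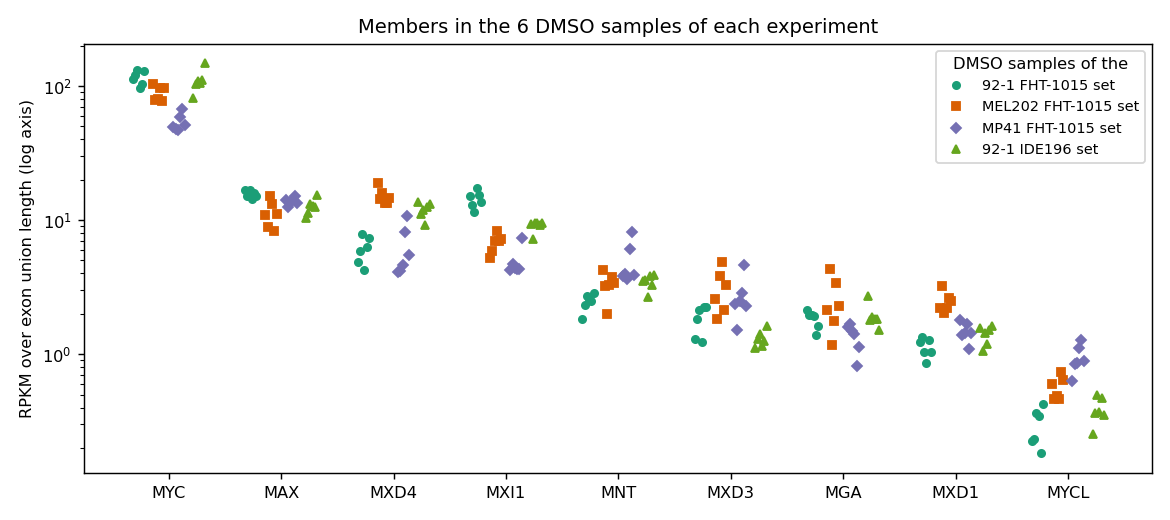
Level of 9 members in the DMSO samples, as RPKM over the union of exons on a log axis, with 1 point per sample and 1 colour and shape per experiment (n = 6 each). MYC lies between 47.2 and 147 RPKM in all 24 samples, above every value of the other members. MYCL has the lowest mean in each experiment, and in MP41 its highest sample (1.27) lies above the lowest of MXD1 (1.09) and MGA (0.811).

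Below MYC the order differed between the sets, those of 1 line included. In the FHT-1015 set of 92-1, MAX (15.7 ± 0.980 RPKM) and MXI1 (14.3 ± 2.09) did not differ beyond their spread, followed by MXD4 (6.10 ± 1.39) and MNT (2.47 ± 0.362). MXD3 (1.83 ± 0.475) and MGA (1.83 ± 0.271) were level, and MXD1 (1.13 ± 0.181) was next to last. In the IDE196 set of the same line MXD4 (11.9 ± 1.57) lay above MXI1 (9.06 ± 0.885) and beside MAX (12.6 ± 1.69), and MXD3 (1.31 ± 0.189) had rank 8. In MEL202 the second place went to MXD4 (15.1 ± 2.07), whose range overlapped that of MAX (11.2 ± 2.54), followed by MXI1 (6.79 ± 1.07). The next 4 members of MEL202, MNT, MXD3, MGA and MXD1, lay between 2.47 and 3.32 RPKM and within each other's spread. In MP41, MAX (13.8 ± 0.883) stood apart, while MXD4 (6.22 ± 2.67), MNT (4.92 ± 1.83) and MXI1 (4.89 ± 1.23) overlapped. With the length of the longest transcript in place of the exon union the order was the same in the FHT-1015 sets of 92-1 and MP41. MNT and MXD3 changed places in MEL202, and in the IDE196 set of 92-1 MAX and MXD4 changed places and MXD3 moved from rank 8 to rank 6.

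Between lines, most members differed in DMSO. In a fit of 36 samples, 8 of 9 members differed between MEL202 and 92-1 (52.9% of all genes did), 6 between MP41 and 92-1 (65.0%) and 8 between MP41 and MEL202 (56.0%). MYC was lower in MEL202 than in 92-1 by a log2 difference of -0.36 (SE 0.10, edgeR adjusted p 0.00468) and lower in MP41 than in 92-1 by -1.09 (SE 0.11, adjusted p 1.28e-10). MXI1 was lower than in 92-1 by -1.05 in MEL202 and -1.52 in MP41. MXD4, by contrast, was higher in MEL202 than in 92-1 by 1.34, with MP41 at -0.01 (95% interval -0.34 to 0.31). The largest of these differences was that of the low MYCL, higher in MP41 than in 92-1 by 1.67 (SE 0.29, adjusted p 9.8e-06). MXD1 was higher in MEL202 than in 92-1 by 1.16 (SE 0.16, adjusted p 3.75e-07), and MNT was higher in MP41 than in 92-1 by 0.99 (SE 0.15, adjusted p 7.66e-07). Each of these lines was also a separate experiment, and line and experiment cannot be told apart. The 2 DMSO sets of 92-1 give the size of a difference between experiments of 1 line: 6 of 9 members differed (60.4% of all genes), with MXD4 higher in the IDE196 set by 0.99 and MXI1 lower by -0.63, while MYC differed by -0.06 (SE 0.12, adjusted p 0.689). MNT and MXD1 were higher in the IDE196 set by 0.52 (adjusted p 3.41e-05) and 0.34 (adjusted p 0.0212). The MXD1 call was lost with library size alone (0.25, adjusted p 0.0981) and with limma-voom (0.26, adjusted p 0.0519). MXD4, MXI1 and MNT thus differed between sets of 1 line as well.

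With time in culture alone, no member was called, although values in MP41 reached 0.82 on the log2 scale. Between 4 and 24 h in DMSO, edgeR's quasi-likelihood test called 0 of 9 members in each of the 4 experiments, where it called 0.344%, 0%, 2.59% and 0.266% of all genes (92-1 with the FHT-1015 set, MEL202, MP41, 92-1 with the IDE196 set). At an unadjusted p under 0.05 there were 1, 0, 3 and 0 members. Of all genes 1382 of 15685, 330 of 15913, 4631 of 15543 and 2214 of 15437 passed that threshold, so the 3 of 9 in MP41 lie near the background. No other tool was run on this comparison. The largest of these differences was that of MXD4 in MP41, 0.82 on the log2 scale (edgeR adjusted p 0.0584). MNT had 0.57 (adjusted p 0.0977) and MGA -0.57 (adjusted p 0.149) in the same line.

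MYC responded to FHT-1015 in 2 directions. After 4 h its transcript was higher than in DMSO in all 3 lines, by 1.44-fold in 92-1, 1.95-fold in MEL202 and 1.71-fold in MP41. After 24 h it was lower in all 3, by 3.69-fold, 3.39-fold and 2.04-fold. With IDE196, 92-1 showed no such rise: MYC was lower by 1.97-fold at 4 h and by 3.40-fold at 24 h. MYC promotes growth, and its protein and messenger are known to turn over fast.

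In 92-1, MYC lay at 336, 355 and 391 CPM in DMSO at 4 h and at 455, 528.5 and 578 CPM with FHT-1015. At 24 h the DMSO samples held 280.1, 314 and 389.6 CPM and the FHT-1015 samples 70.9, 97.2 and 98.5 CPM. Every treated sample was above every DMSO sample at 4 h and below every one at 24 h. The log2 fold changes were 0.53 (SE 0.14, edgeR adjusted p 0.00823) and -1.88 (SE 0.14, adjusted p 2.02e-08), and their difference of -2.41 (SE 0.20, adjusted p 1.72e-07) was itself called. In a measurement of bulk RNA, fewer cells of a kind and less RNA per cell cannot be told apart, and the CPM scale shows a share of all transcripts, since the 92 spike-in controls listed in the files had 0 reads.

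In MEL202 the 4 h values were 234, 247 and 322 CPM in DMSO and 503.5, 521.5 and 542 CPM with FHT-1015. The 24 h values were 232, 295.5 and 298 CPM in DMSO and 73.0, 84.9 and 85.8 CPM with the drug. Again neither pair of groups overlapped. The changes were 0.96 (SE 0.19, adjusted p 0.0367) and -1.76 (SE 0.20, adjusted p 4.73e-05), with a difference between times of -2.72 (SE 0.27, adjusted p 0.000129). The call at 4 h is fragile: it was lost without any 1 of 9 libraries, namely replicates 2 and 3 of DMSO at 4 h, 1 and 3 of DMSO at 24 h, 1 and 3 of the treated ones at 4 h and all 3 treated ones at 24 h (changes from 0.87 to 0.99, adjusted p from 0.0589 to 0.146). It was also lost in a fit of the 6 samples alone (0.99, adjusted p 0.552) and with a replicate block (0.97, adjusted p 0.0580).

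In MP41 the samples held 155.5, 158 and 165 CPM in DMSO and 259, 266 and 291 CPM with FHT-1015 at 4 h. At 24 h there were 167, 186 and 199 CPM in DMSO against 82.6, 93.7 and 94.1 CPM. The groups stood apart at both times. The log2 changes were 0.77 (SE 0.12, adjusted p 0.0171) and -1.03 (SE 0.12, adjusted p 3.29e-05), differing by -1.80 (SE 0.18, adjusted p 3e-05). The 4 h call was lost when any 1 of the 6 libraries compared at 4 h was left out (changes from 0.73 to 0.81, adjusted p from 0.0800 to 0.158).

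With IDE196, 92-1 had 112, 126 and 181 CPM of MYC at 4 h against 225, 291 and 308 CPM in its DMSO samples. At 24 h it had 92.5, 99.1 and 111 CPM against 298, 314 and 415 CPM. All treated samples lay below all DMSO samples at both times, and the drug therefore lowered MYC at a time when FHT-1015 raised it. The changes were -0.98 (SE 0.16, adjusted p 0.000428) and -1.76 (SE 0.17, adjusted p 9.46e-08), and the further fall from 4 to 24 h, -0.79 (SE 0.23, adjusted p 0.0149), was called.

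**Figure D2:**
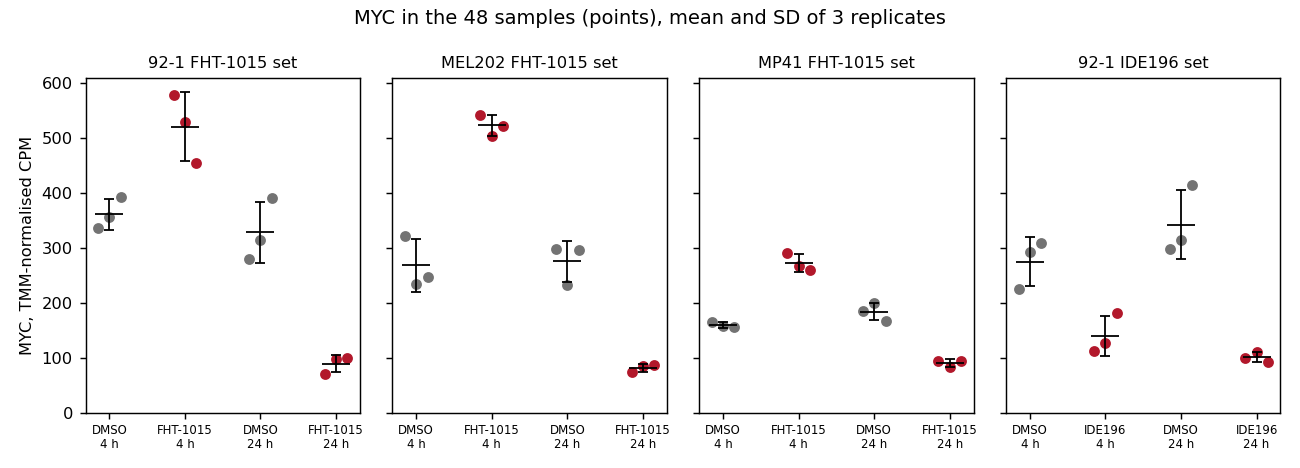
MYC in the 48 samples as TMM-normalised CPM (points), with the mean and SD of the 3 replicates of each group (lines). FHT-1015 samples stand above DMSO at 4 h and below 100 CPM at 24 h in each line, and IDE196 samples stand below DMSO at both times.

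Of the other MYC genes, MYCL showed no called change. Its CPM lay between 0.367 and 6.95 over the 48 libraries, and its log2 changes in the 8 comparisons ran from -0.49 to 0.46, with standard errors as large as 0.52 in MEL202. Changes of that size were not detectable in MEL202 at that precision. MYCN, which drives neuroblastoma when amplified, stayed at 0 to 4 reads, and its highest value was in an IDE196 library at 4 h. MYCL had no called rise where MYC fell.

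The number of members called followed the number of genes called overall in part only. In 92-1 with FHT-1015, 2 members were higher and 1 lower at 4 h, where 29.5% of all genes were called, and 3 were higher and 4 lower at 24 h, where 60.6% were. In MEL202, 1 member was higher at 4 h (0.679% of all genes were called), and 1 was higher and 2 were lower at 24 h (18.8%). In MP41, 1 was higher at 4 h (0.225% of all genes), and 1 was higher and 2 were lower at 24 h (36.1%). With IDE196, 3 members were higher and 2 lower at 4 h (16.2%), and 3 were higher and 2 lower at 24 h (58.1%). With limma-voom and quality weights the numbers at 24 h were higher, 7 of 9 in MEL202 (55.5% of all genes) and 6 of 9 in MP41 (60.7%). In a fit of all 48 samples they were lower in 92-1, 4 at 24 h of FHT-1015 (36.4%), and 2 and 3 at 4 and 24 h of IDE196 (4.74% and 35.7%). Taken by direction, the shares of all genes called higher and lower at 4 h were 12.9% and 16.7% in 92-1 with FHT-1015, 0.157% and 0.522% in MEL202, 0.0708% and 0.154% in MP41, and 6.89% and 9.30% with IDE196. At 4 h in MEL202 and MP41 the member called was MYC, one of few genes to pass there. At 24 h the called shares of 92-1, 7 and 5 of 9, and of MP41, 3 of 9, lie near the background. So does that of 92-1 at 4 h of FHT-1015, 3 of 9. A difference of the late and early effect was called for 5, 2, 3 and 4 members (45.5%, 6.89%, 18.6% and 30.7% of all genes).

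**Figure D3:**
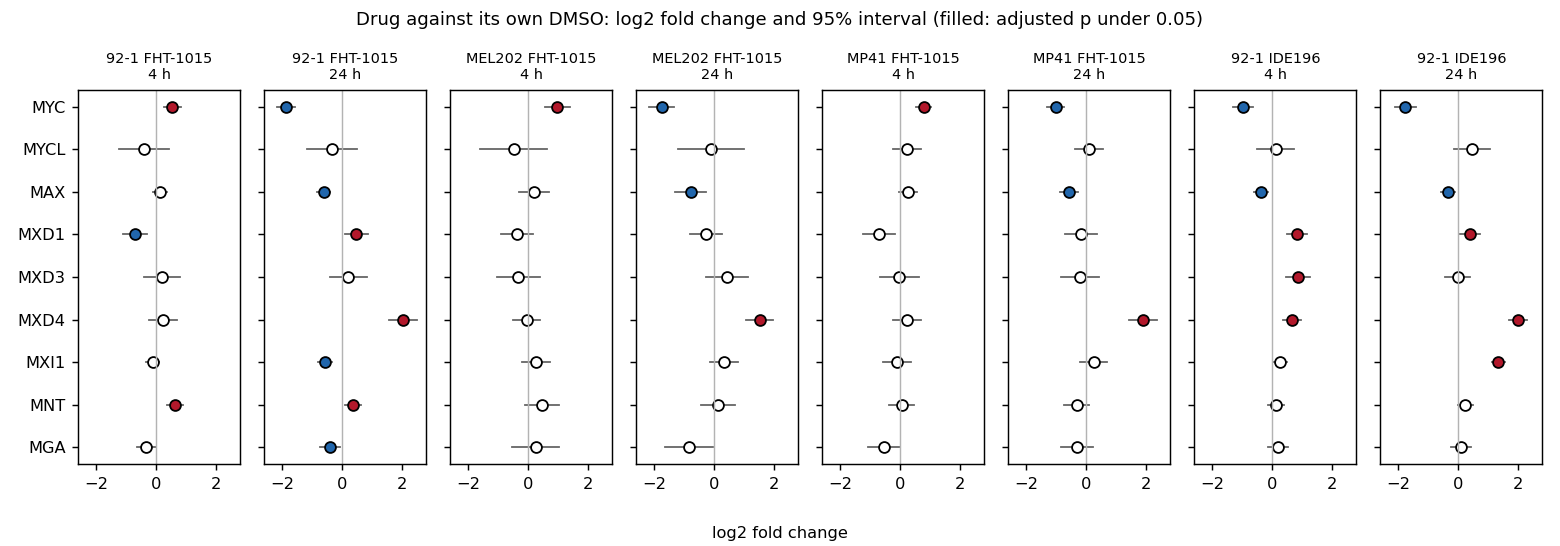
Log2 fold change of the 9 tested members in the 8 comparisons of a drug with its own DMSO, with 95% intervals from edgeR. Filled points passed an adjusted p of 0.05 (red higher, blue lower). MYC changes side between 4 and 24 h with FHT-1015, and MXD4 lies between 1.51 and 2.02 in all 4 comparisons at 24 h.

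MAX, the shared dimer partner of the network, fell modestly at 24 h in all 4 experiments. In 92-1 it went from 61.3, 66.8 and 71.3 CPM in DMSO to 38.1, 44.0 and 47.0 CPM with FHT-1015 at 24 h. In MP41 it went from 64.0, 64.9 and 66.2 to 38.8, 45.5 and 46.9 CPM. In MEL202 the values were 36.9, 50.6 and 59.4 CPM in DMSO and 25.3, 29.4 and 30.2 CPM with the drug. The groups did not overlap in any of the 3 lines. The log2 changes were -0.63 (SE 0.11, adjusted p 0.000109), -0.57 (SE 0.14, adjusted p 0.00626) and -0.79 (SE 0.24, adjusted p 0.0331). The MEL202 call was lost without replicate 1 or 3 of DMSO at 24 h or any replicate of FHT-1015 at 24 h (changes from -0.63 to -0.84, adjusted p from 0.0848 to 0.146). At 4 h no line was called, with changes of 0.12, 0.25 and 0.18 in 92-1, MP41 and MEL202.

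With IDE196 the fall of MAX was already called at 4 h. It went from 42.2, 47.4 and 54.3 CPM to 34.7, 35.1 and 40.8 CPM at 4 h, and from 52.1, 53.0 and 63.5 to 40.2, 44.8 and 46.6 CPM at 24 h, again without overlap. The changes of -0.38 (SE 0.11, adjusted p 0.0277) and -0.36 (SE 0.11, adjusted p 0.0109) were equal within error, their difference being 0.02. The 4 h call was lost without replicate 5 or 6 of DMSO or replicate 1 or 2 of IDE196 at 4 h (changes from -0.29 to -0.39, adjusted p from 0.0587 to 0.139). The 24 h call was lost without replicate 6 of DMSO at 24 h (-0.27, adjusted p 0.0683). Both were lost in the fit of all 48 samples (-0.37, adjusted p 0.207, and -0.31, adjusted p 0.115), and the 4 h call in a fit of the 6 samples alone (adjusted p 0.0575).

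MXD4 had the largest called rise of the MAX partners at 24 h in all 4 experiments. It encodes a repressor of the MXD group that is known from differentiating cells. In 92-1 it went from 29.1, 44.5 and 52.4 CPM in DMSO to 161, 169 and 179.5 CPM with FHT-1015 at 24 h. In MEL202 it went from 95.9, 97.4 and 106 CPM to 266, 286 and 303 CPM. In MP41 it went from 41.7, 61.4 and 74.5 CPM to 196, 203 and 260 CPM. The lowest treated sample was above the highest DMSO sample in each line. These are rises of 4.06-fold (log2 2.02, SE 0.22, adjusted p 1.24e-06), 2.85-fold (1.51, SE 0.21, adjusted p 0.000252) and 3.71-fold (1.89, SE 0.22, adjusted p 2.17e-05).

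At 4 h FHT-1015 gave no called change of MXD4, with log2 values of 0.24, -0.06 and 0.22 in 92-1, MEL202 and MP41, and the difference between times was called in each line (1.79, 1.57 and 1.67). With IDE196 the rise was present at 4 h, from 73.1, 77.9 and 88.4 CPM to 101, 124 and 149 CPM, which is 1.56-fold (log2 0.65, SE 0.14, adjusted p 0.00346). This 4 h call was lost in the fit of all 48 samples (0.65, adjusted p 0.0686). At 24 h it had grown from 61.6, 83.3 and 86.7 CPM to 287, 292 and 339 CPM, or 3.97-fold (1.99, SE 0.14, adjusted p 3.28e-09). The groups did not overlap at either time.

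MXI1, also called MXD2, is another SIN3-recruiting repressor, and the drugs moved it in opposite directions in 92-1. FHT-1015 lowered it at 24 h from 63.1, 71.4 and 77.2 CPM to 45.5, 46.7 and 49.2 CPM. IDE196 raised it at 24 h from 39.8, 40.9 and 41.7 CPM to 96.6, 101 and 110 CPM. Both changes left no overlap between groups. They were -0.58 (SE 0.11, adjusted p 0.000283) and 1.33 (SE 0.11, adjusted p 1.09e-08, 2.52-fold). In MEL202 and MP41 the 24 h changes with FHT-1015 were 0.32 (SE 0.22, adjusted p 0.348) and 0.24 (SE 0.21, adjusted p 0.395), neither called by edgeR, while limma-voom called both (0.34, adjusted p 0.00699, and 0.53, adjusted p 0.000975). At 4 h no comparison was called, the values being -0.13, 0.25 and -0.10 with FHT-1015 and 0.26 with IDE196.

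MXD1, the first described of the MXD repressors, was low in every line and was called by edgeR with both drugs in 92-1. With FHT-1015 it fell at 4 h from 6.53, 7.66 and 8.43 CPM to 3.67, 4.97 and 5.13 CPM (log2 -0.72, SE 0.19, adjusted p 0.00849). It was then higher at 24 h, with 8.32, 8.96 and 10.2 CPM against 5.28, 6.59 and 8.14 CPM (0.47, SE 0.18, adjusted p 0.0376). This order of an early fall and a late rise is the reverse of that of MYC, and the difference between times was called (1.19, adjusted p 0.00165). IDE196 raised MXD1 at 4 h from 6.31, 8.58 and 9.25 CPM to 12.4, 14.1 and 15.9 CPM (0.82, SE 0.16, adjusted p 0.00136). At 24 h the rise was from 7.12, 8.98 and 9.69 CPM to 10.8, 11.1 and 12.2 CPM (0.40, SE 0.16, adjusted p 0.0387).

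The groups of MXD1 did not overlap in any of these 4 comparisons of 92-1. In MP41 at 4 h the treated samples, at 4.56, 7.21 and 7.76 CPM, were also all below the DMSO samples, at 9.74, 10.04 and 12.5 CPM, but the change of -0.71 was not called by edgeR (SE 0.25, adjusted p 0.506) and was called by limma-voom (-0.60, adjusted p 0.0374). At 24 h MP41 had -0.17 (SE 0.24, adjusted p 0.612), with overlap. The MP41 effect minus that in 92-1 was 0.0069 (95% interval -0.64 to 0.66) at 4 h and -0.73 (95% interval -1.39 to -0.067, adjusted p 0.173) at 24 h. In MEL202 the values were -0.37 at 4 h and -0.27 at 24 h, the latter called by limma-voom (-0.31, adjusted p 0.0234), and the 24 h effect minus that in 92-1 was -0.78 (95% interval -1.43 to -0.12, adjusted p 0.195). The test of any difference among the lines did not call MXD1 at 4 or 24 h (adjusted p 0.919 and 0.169). The FHT-1015 call at 24 h was lost without replicate 1 of DMSO at 4 h, 1 or 3 of DMSO at 24 h or 2 or 3 of FHT-1015 at 24 h (changes from 0.31 to 0.48, adjusted p from 0.0511 to 0.172). That with IDE196 at 24 h was lost without replicate 4 or 5 of DMSO at 24 h or any replicate of IDE196 at 24 h (0.27 to 0.44, adjusted p from 0.0516 to 0.189). In the fit of all 48 samples neither 24 h value was called (adjusted p 0.0779 and 0.0981), and without the filter on low counts that with FHT-1015 was not (adjusted p 0.0555).

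MXD3, the MXD protein linked to dividing cells, gave values that depend on how shared exon bases are counted. Of its exon bases, 40.4% are also those of another gene, of PRELID1 on the opposite strand (22.5%) or of RAB24 on the same strand, and the libraries do not keep the strand. With IDE196 at 4 h it went from 5.29, 6.23 and 6.84 CPM to 10.1, 11.5 and 11.6 CPM, without overlap (log2 0.85, SE 0.19, adjusted p 0.00403). With the sum of both stranded columns, which also takes in reads of bases shared between strands, the change was -0.02 (adjusted p 0.952). The call was also lost in the fit of all 48 samples (0.86, adjusted p 0.127). The 7 other values of MXD3, from -0.34 to 0.42, were not called. With the stranded columns the value in 92-1 at 24 h of FHT-1015 passed the test in the other direction (-0.68, adjusted p 3.1e-05, against 0.20). No direction is therefore claimed for this gene, although edgeR's call counts it among the 3 members higher with IDE196 at 4 h.

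MNT and MGA, the large MAX partners, were called by edgeR in 92-1 with FHT-1015, and a difference of these effects among the 3 lines was not (adjusted p 0.708 and 0.159 for MNT, 0.755 and 0.667 for MGA, at 4 and 24 h), although limma-voom called that of MNT at 4 h (adjusted p 0.0131). MNT, a broadly expressed repressor, rose at 4 h from 15.6, 20.2 and 23.4 CPM to 27.5, 31.8 and 31.9 CPM (log2 0.62, SE 0.13, adjusted p 0.00162). At 24 h it lay at 28.7, 29.3 and 29.4 CPM against 21.6, 21.8 and 24.8 CPM (0.36, SE 0.13, adjusted p 0.0239). The groups were apart at both times. In the other experiments MNT changes ran from -0.33 to 0.45 and were not called by edgeR, while limma-voom called MNT in MP41 at 24 h (-0.40, adjusted p 0.00256). An antisense gene, AC006435.1, shares 12.2% of the exon bases of MNT. Without strand, reads of these shared bases cannot be given to 1 of the 2 genes. Between 9.35% and 11.83% of the reads of a library were set aside as ambiguous.

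MGA fell at 24 h in 92-1 from 24.7, 28.7 and 32.8 CPM to 16.7, 22.7 and 25.1 CPM (log2 -0.42, SE 0.15, adjusted p 0.0266), and these groups overlapped. In MEL202 the 24 h value was -0.83 (SE 0.37, adjusted p 0.144), with DMSO samples between 32.1 and 60.3 CPM. That value was called in the fit of all 48 samples (-0.85, adjusted p 0.0164) and by limma-voom (-0.74, adjusted p 0.00328), which also called MGA in MP41 at 24 h (-0.74, adjusted p 0.000337). The call of MGA in 92-1 was lost without replicate 1 of DMSO (-0.32, adjusted p 0.108) or replicate 1 of FHT-1015 at 24 h (-0.26, adjusted p 0.135). The 24 h call of MNT was lost without replicate 1 or 2 of DMSO or any replicate of FHT-1015 at 24 h (0.31 to 0.37, adjusted p from 0.0528 to 0.0831). In the fit of all 48 samples neither 24 h call in 92-1 held (adjusted p 0.136 for MNT and 0.290 for MGA), and with library size alone that of MGA did not (-0.34, adjusted p 0.0726).

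The level of the MYC genes relative to the MXD genes, which oppose them in function, was also followed sample by sample. The summed RPKM of MYC, MYCN and MYCL was divided by that of MXD1, MXD3, MXD4 and MXI1 in each sample, as a description that weights each transcript by its level. In 92-1 the ratio was 5.48 ± 0.419 (SD, n = 3) in DMSO and 8.07 ± 1.597 with FHT-1015 at 4 h, and 4.52 ± 0.704 and 0.792 ± 0.167 at 24 h. In MEL202 it went from 3.16 ± 0.399 to 6.35 ± 0.801 at 4 h and from 3.31 ± 0.221 to 0.487 ± 0.0215 at 24 h. In MP41 it went from 3.96 ± 0.229 to 6.85 ± 0.106 and from 3.31 ± 0.165 to 0.758 ± 0.145. MYC transcripts thus exceeded those of the MXD genes in each of the 24 DMSO samples and were below them in each of the 12 treated samples at 24 h. With IDE196 the ratio fell from 4.26 ± 0.959 to 1.502 ± 0.430 at 4 h and from 5.09 ± 0.588 to 0.498 ± 0.0652 at 24 h. Drug and DMSO samples did not overlap in any of the 8 comparisons. Without MXD3 the means lay between 0.508 and 8.83, against 0.487 and 8.07 with it.

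**Figure D4:**
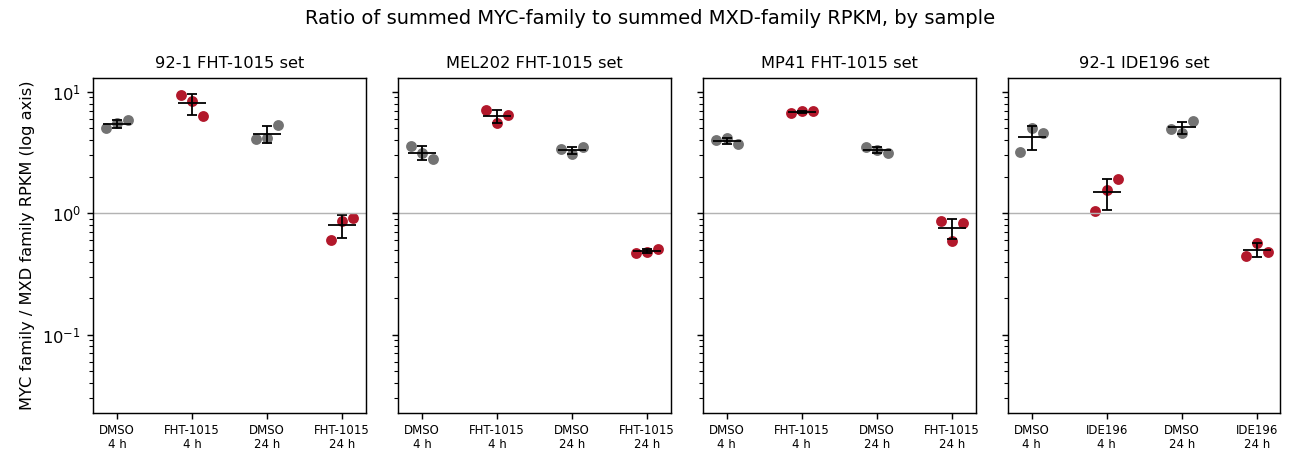
Ratio of the summed RPKM of MYC, MYCN and MYCL to that of MXD1, MXD3, MXD4 and MXI1 in each of the 48 samples, on a log axis, with the mean and SD of each group of 3. The grey line marks a ratio of 1. All samples with FHT-1015 or IDE196 at 24 h lie below it, and all DMSO samples lie above it.

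The lines differed in the FHT-1015 effect on MYC and MXI1 at 24 h. A test of any difference among the 3 lines called 0 of 9 members at 4 h with edgeR (0 at an unadjusted p under 0.05, where 1.38% of all genes were called), and limma-voom called 1 there, MNT, with an adjusted p of 0.0131, while that of MYC was 0.330. At 24 h it called 2 of 9, MYC (adjusted p 0.0210) and MXI1 (adjusted p 0.0460), against 12% of all genes. The fall of MYC was smaller in MP41 than in 92-1 by a log2 difference of 0.75 (SE 0.21, adjusted p 0.0194; 8.47% of all genes were called between these lines), while MP41 and MEL202 differed by 0.67 (SE 0.21, adjusted p 0.0524, with 5.53% of genes called). MEL202 and 92-1 differed by 0.08 (SE 0.21, adjusted p 0.939, with 5.35% of genes called). MXI1 responded higher in MEL202 than in 92-1 by 0.87 (SE 0.26, adjusted p 0.0491), and with library size alone that adjusted p was 0.0521. Without the filter on low counts the tests among lines gave adjusted p of 0.0594 for MYC and 0.0634 for MXI1. Line and experiment coincide here as well.

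In 92-1 the drugs differed on MYC, MAX and MXD1 at 4 h and on MXI1 at 24 h. The comparison subtracts 2 effects, each against its own DMSO, in a fit of 24 samples; 3 of 9 members were called at 4 h (24.6% of all genes) and 1 at 24 h (33.0%). At 4 h the IDE196 effect minus the FHT-1015 effect was -1.50 for MYC (SE 0.24, adjusted p 2.37e-05), -0.50 for MAX (SE 0.16, adjusted p 0.0221) and 1.55 for MXD1 (SE 0.25, adjusted p 3.43e-05). At 24 h it was 1.92 for MXI1 (SE 0.16, adjusted p 1.56e-10). For MYC at 24 h the difference was 0.12 (95% interval -0.37 to 0.61, adjusted p 0.753) and for MXD4 -0.03 (95% interval -0.60 to 0.53), which leaves room for differences of up to about that size in either direction. Drug and experiment cannot be told apart in this comparison.

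The other bHLH arm of the network centres on MLX, which pairs with some MXD proteins and MNT and also with the glucose sensors MLXIP and MLXIPL. Their best known target, TXNIP, which limits glucose uptake, rose at 24 h in all 4 experiments: by 1.93 (SE 0.44), 2.27 (SE 0.29), 1.85 (SE 0.27) and 2.08 (SE 0.21) on the log2 scale in 92-1, MEL202, MP41 and 92-1 with IDE196. TXNIP samples overlapped with DMSO in 92-1 with FHT-1015 and in no other of these comparisons. With IDE196 TXNIP was already higher at 4 h (1.63, SE 0.21), whereas with FHT-1015 at 4 h its values were 0.01, -0.18 and -0.25. ARRDC4, a related arrestin and target, rose at 24 h with FHT-1015 in 92-1 (1.13, SE 0.36) and MP41 (1.47, SE 0.31), was not tested in MEL202, and had a value of 0.68 with IDE196 (adjusted p 0.0735).

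MLX itself fell at 24 h in 92-1 (-0.49, SE 0.11), in MP41 (-0.57, SE 0.15) and with IDE196 (-0.59, SE 0.12), where it was also lower at 4 h (-0.48, SE 0.12). Its value in MEL202 was -0.38 (adjusted p 0.183). MLXIP fell in 92-1 with FHT-1015 at 4 h (-0.44, SE 0.08) and 24 h (-0.99, SE 0.09), in MP41 at 24 h (-0.70, SE 0.21) and with IDE196 at 24 h (-0.26, SE 0.10). MLXIPL was barely detected and rose with IDE196 at 24 h (1.98, SE 0.40, from 0.369 to 1.48 CPM).

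Among 16 cofactors and turnover factors of MYC, more fell than rose at 24 h. With FHT-1015, 2 rose and 7 fell in 92-1, 1 rose and 3 fell in MEL202, and 0 rose and 5 fell in MP41. With IDE196, 2 rose and 10 fell. Over all genes the shares called higher and lower at 24 h were 29.2% and 31.4%, 8.69% and 10.1%, 17.4% and 18.7%, and 28.7% and 29.4% in this order of experiments. ZBTB17, known as MIZ1, through which MYC represses, rose in 92-1 (0.74) and MEL202 (0.75) with FHT-1015 and at both times with IDE196 (0.61 and 0.30). SKP2, a ubiquitin ligase subunit that targets MYC, fell at 24 h in MEL202 (-1.15) and MP41 (-1.59). CIP2A, which protects MYC from dephosphorylation, fell at 24 h in 92-1 with FHT-1015 (-1.37) and with IDE196 (-1.56). At 4 h, 5 rose and 3 fell in 92-1 with FHT-1015 (12.9% and 16.7% of all genes) and 1 rose and 3 fell with IDE196 (6.89% and 9.30%), so that the share called lower with FHT-1015 lies near the background, while edgeR called 0 in MEL202 (2 at an unadjusted p under 0.05) and 0 in MP41 (2 at an unadjusted p under 0.05).

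At 24 h, partners of the repressors were called in both directions with FHT-1015 in 92-1, for the SIN3 genes at shares near those of all genes. Of 8 genes of the SIN3 complex, 2 rose and 3 fell at 24 h with FHT-1015 in 92-1, 1 rose and 1 fell in MP41, and 4 fell with IDE196. Of all genes 29.2% were called higher and 31.4% lower in 92-1, and 17.4% and 18.7% in MP41. The SIN3 numbers with FHT-1015 lie near these shares. With IDE196 29.4% of all genes were called lower. SIN3A, the scaffold that MXD proteins bind, rose by 0.40 in 92-1 and by 0.41 in MP41. In MEL202 edgeR called 0 of 8 at 24 h and at 4 h, and none had an unadjusted p under 0.05. Of 10 PRC1.6 partners of MGA, 2 rose and 6 fell in 92-1 with FHT-1015 at 24 h, 2 fell in MEL202, 2 fell in MP41, and 1 rose and 6 fell with IDE196. The 2 of 10 in MP41 lie near the 18.7% of all genes called lower there, while the share in MEL202 was 10.1%. TFDP1, the dimer partner of E2F proteins, fell in all 4 at 24 h, by values of -1.24, -1.05, -1.33 and -1.01, and E2F6, its partner in PRC1.6, had -0.84, -1.09, -0.65 and -0.66.

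Genes of the nucleolus and of ribosome production, a classical set of MYC targets, followed MYC in direction in 92-1 and at 24 h in each line. Of 20 listed, 11 rose and 0 fell in 92-1 after 4 h of FHT-1015, with a median log2 change of 0.30 against 0.01 over all genes, of which 12.9% were called higher. Among the 11, RRP9 rose by 0.78 and RRP12 by 0.67; both encode factors that process ribosomal RNA. In a fit of all 48 samples, 4 of the 11 were called higher. In MEL202 and MP41 at 4 h the medians were 0.10 and 0.19, with 14 and 19 of 20 values above 0, and edgeR called 0 in either. There were 3 with an unadjusted p under 0.05 in each, DESeq2 called 0 in MEL202 and 1 in MP41, and limma-voom called 0 and 1.

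At 24 h of FHT-1015, 17 of these 20 fell in 92-1, 16 in MEL202 and 14 in MP41, and 0 rose. Of all genes 31.4%, 10.1% and 18.7% were called lower. The medians were -1.02, -1.15 and -0.72, beside 0.00, -0.01 and 0.07 over all genes. NOP16, a nucleolar protein, fell by values of -1.79, -1.90 and -1.23 and was the lowest in each line. With IDE196, 15 fell at 4 h (median -0.49, with 9.30% of all genes called lower) and 18 at 24 h (median -1.30, with 29.4% of all genes called lower), NOP16 by -1.18 and -2.54. At 4 h POLR1B, a subunit of RNA polymerase I, rose in 92-1 with FHT-1015 (0.36) and fell with IDE196 (-1.19). NPM1 and UBTF were not called at 24 h in any of the 4 experiments. In the fit of all 48 samples 9 fell with IDE196 at 4 h.

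**Figure D5:**
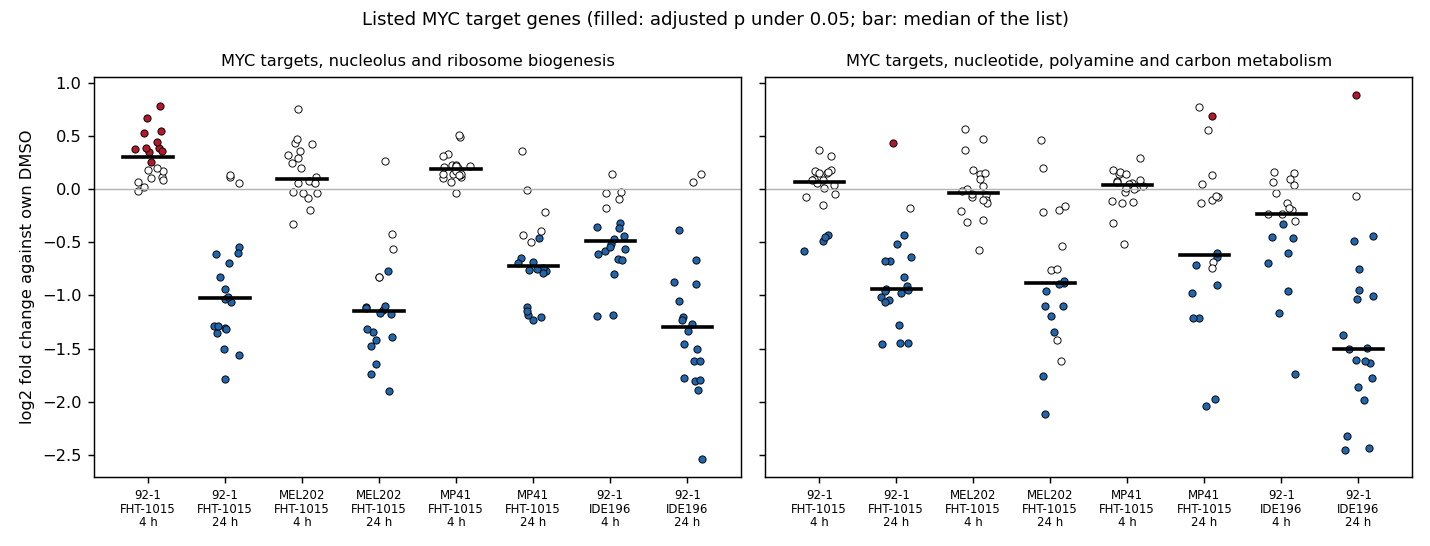
Log2 fold change of 20 nucleolar and ribosome production genes (left) and 20 nucleotide, polyamine and carbon metabolism genes (right) in the 8 comparisons, with 1 point per gene, filled where the adjusted p was under 0.05, and a bar at the list median. The left medians are 0.30 in 92-1 at 4 h of FHT-1015 and -0.49 at 4 h of IDE196, and all medians at 24 h are below -0.6.

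Most of the 20 metabolic targets also fell at 24 h in 92-1, while the calls at 4 h of FHT-1015 depended on the tool. In 92-1 after 4 h of FHT-1015, edgeR found that 0 rose and 4 fell (median 0.07), among them SLC2A1 (-0.49), a glucose transporter. That share of the 20 lies near the 16.7% of all genes called lower there. This number was 2 without replicate 2 or 3 of DMSO or the second treated replicate at 4 h. It was 1 in the fit of all 48 samples, and limma-voom called 6 higher and 5 lower. At 24 h 1 rose and 18 fell in 92-1 (median -0.94), 0 rose and 10 fell in MEL202 (-0.89; 17 fell with limma-voom), and 1 rose and 9 fell in MP41 (-0.62), where 31.4%, 10.1% and 18.7% of all genes were called lower. LDHA, the lactate dehydrogenase subunit of glycolysis, fell in 92-1 (-1.45) and rose in MP41 (0.69), while CTPS1, which makes CTP, fell in 92-1 (-1.46) and MEL202 (-2.12). With IDE196, 8 fell at 4 h (median -0.23; 4 in the fit of all 48 samples; 9.30% of all genes were called lower), and 1 rose and 18 fell at 24 h (median -1.50; 29.4% of all genes), with NME1 at -2.45 and TFRC, the transferrin receptor, at -2.43. In MEL202 and MP41 at 4 h edgeR called 0 of the 20, with 1 and 2 at an unadjusted p under 0.05. DESeq2 called 0 in both, and limma-voom 0 in MEL202 and 1 in MP41.

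Genes that MYC is known to repress did not all move against it. Of the 10 to 12 tested of 12 listed, 1 rose and 7 fell in 92-1 after 4 h of FHT-1015 (median -0.80), among them the cell cycle inhibitor CDKN1C (-2.38) and the stress gene GADD45B (-1.64). Of all genes 12.9% were called higher and 16.7% lower there. At 24 h 5 rose and 2 fell there (median 0.44), 3 rose and 1 fell in MEL202 (median -0.05), and 4 rose and 3 fell in MP41 (median -0.08). The shares of all genes called higher were 29.2%, 8.69% and 17.4%, and those called lower were 31.4%, 10.1% and 18.7%. The numbers that fell lie near or below the latter. The 3 that fell in MP41 were 1 without replicate 1 or replicate 2 of FHT-1015 at 24 h. NDRG1, a growth arrest gene, rose at 24 h by 1.77, 2.52 and 1.93, and CDKN2B, which encodes the inhibitor p15, by 1.53, 1.20 and 1.77. CDKN1A, which encodes p21, fell instead in 92-1 (-0.95) and MEL202 (-0.68). With IDE196, 3 rose at 4 h and 5 at 24 h with 0 called lower (6.89% and 28.7% of all genes were called higher), NDRG1 by 1.05 and 2.63. In MEL202 at 4 h CDKN1A alone was called (-1.005). In MP41 edgeR called 0 at 4 h (1 at an unadjusted p under 0.05, 0 with DESeq2 and 1 with limma-voom).

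The share of genes with an E-box ran from 0% to 60% over these lists. CACGTG stood within 250 bases upstream of a start in 7 of the 17 metabolic targets with a promoter in the RefSeq table (41.2%) and in 0 of 16 nucleolar targets, against 2110 of 27305 genes in the table (7.7%). LDHA and HK2 held 2 each. In the MLX arm of 5 genes, MLX and ARRDC4 held 1 each. Of the other lists, 4 of 11 cofactors (36.4%), 1 of 8 SIN3 genes, 1 of 10 PRC1.6 genes and 1 of 9 genes repressed by MYC held one, as did 3 of the 5 genes most like MYC, given next. Absence from this window says only that these letters are not there.

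The genes whose pattern was most like that of MYC were USP36, DPH2, PVR, WDR5 and DDX19A. Likeness is the Pearson correlation over 16 group means of log2 CPM, centred within each experiment, and is given as a description. It was 0.984, 0.979, 0.975, 0.973 and 0.972, and the points share libraries. By Spearman correlation their ranks were 3.5, 17, 1.5, 7.5 and 68. USP36 is a nucleolar deubiquitinase that acts on MYC, and WDR5 is the chromatin cofactor whose E-box is printed with the promoters. USP36 rose in 92-1 at 4 h of FHT-1015 (0.35), had values of 0.60 and 0.37 in MEL202 and MP41 that were not called, and fell at 24 h by -1.10, -0.96 and -0.99. With IDE196 it fell by -0.88 and -1.18. WDR5 had 0.25 in 92-1 at 4 h and -0.93, -0.89 and -1.01 at 24 h, and -0.39 and -0.96 with IDE196, all called, while its 4 h values of 0.36 in MEL202 and 0.29 in MP41 were not called. Among the members, the same correlation with MYC was 0.94 for MAX, 0.60 for MGA, -0.20 for MNT, -0.42 for MXI1, -0.52 for MYCL, -0.57 for MXD1, -0.62 for MXD3 and -0.83 for MXD4.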

How the data were processed

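The authors deposited raw read counts per gene for each of the 48 RNA libraries (poly-A selected, NEBNext Ultra, per the labels' protocols), in an unstranded column and 2 stranded columns. The submitters' processing notes name hg38 and limma; the aligner and annotation are not given in the sources used here. The unstranded counts were used, since 49.73% to 50.11% of stranded reads lay on the first strand. Names and coordinates came from GENCODE release 29, which holds 58552 of the 58870 genes. Each experiment was fitted with edgeR 4.0.16 in R 4.3.3 (TMM, filterByExpr, 4 groups, quasi-likelihood F-test), with Benjamini-Hochberg adjustment over all genes tested, and called at 0.05. The SE of a log2 fold change is its size over the root of F. CPM were TMM-normalised within an experiment and RPKM over all 48 samples. Scripts were tested on simulated data. Alternatives included DESeq2 1.42.0 and limma-voom (limma 3.58.1).

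The members and lists were chosen with earlier results of these data known. All members are named. Of each list, at most 2 called genes with the largest rise and 2 with the largest fall are named per comparison, and values of a named gene are also given elsewhere. NPM1 and UBTF were named after their values were seen. The genes most like MYC are the 5 protein-coding genes with the highest Pearson correlation among those tested in all experiments, averaging 5 CPM or more and ranging at least 0.5 times as widely as MYC. Replicates of a group differed by more than counting noise in all 48 pairs (chi-square per degree of freedom at least 4.18).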

Additional observations from a re-analysis of the deposited data

Results flagged for a closer look

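The effect of a drug differed between 4 and 24 h by edgeR's test of the difference for 14 member values. These were 5, 2 and 3 of 9 members in 92-1, MEL202 and MP41 with FHT-1015, and 4 of 9 with IDE196. Of all genes 45.5%, 6.89%, 18.6% and 30.7% were called in this order. On the log2 scale, 24 h minus 4 h, MYC had -2.41 in 92-1, -2.72 in MEL202 and -1.80 in MP41 with FHT-1015, and -0.79 in 92-1 with IDE196. MXD4 had 1.79, 1.57, 1.67 and 1.34 in the same order. MAX had -0.75 in 92-1 and -0.82 in MP41 with FHT-1015. In 92-1 with FHT-1015, MXD1 had 1.19 and MXI1 -0.45. With IDE196, MXI1 had 1.07 and MXD3 -0.88.

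The MXI1 value with FHT-1015 was no longer called without replicate 2 or 3 of DMSO at 4 h, replicate 1 of DMSO at 24 h, replicate 1 of FHT-1015 at 4 h or replicate 2 of FHT-1015 at 24 h (-0.38 to -0.45, adjusted p up to 0.0681), or in the fit of all 48 samples (-0.46, adjusted p 0.190). That of MXD3 was not called without replicate 6 of DMSO at 24 h (-0.72, adjusted p 0.0627) or in the fit of all 48 samples (-0.84, adjusted p 0.265), and MXD3 shares exon bases with 2 other genes.

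The FHT-1015 effect at 24 h differed among the 3 lines for MYC (adjusted p 0.0210) and for MXI1 (adjusted p 0.0460). The fall of MYC was the smallest in MP41, the line with the lowest DMSO level of MYC.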

How the results depend on the processing

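Of 72 member values in the 8 comparisons of drug and DMSO, 28 were called. The share of all genes called ran from 0.225% to 60.6% over these comparisons. Of these 28, 27 kept their direction under every alternative other than leaving out a library (normalisation, filter, test, stranded columns, samples in the fit, replicate block), and 19 stayed called under all of them. In every fit that left out a library, 19 stayed called. MYCN, at 0 to 4 reads in a library, was too low to test.

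The number of members called was 7 in MEL202 at 24 h, 2 in MP41 at 4 h and 6 in MP41 at 24 h with limma-voom, and 4 in 92-1 with FHT-1015 at 24 h, 2 with IDE196 at 4 h and 3 with IDE196 at 24 h in a fit of all 48 samples. In MEL202 at 4 h it was 0 in the fit of the 6 samples (MYC 0.99, adjusted p 0.552) and 0 with a replicate block (MYC 0.97, adjusted p 0.0580). The labels do not say that the numbers pair the libraries, and the data differed by line. Same-numbered libraries deviated together with r above 0.1 in 9 of 18 pairs (-0.447 to 0.650). In all, 11 of 18 correlated best with their own number, 3 of 6 in 92-1 and 2 of 6 in MEL202. In MP41 all 6 did, with r from 0.0599 to 0.240 and 4 of the 6 above 0.1, a hint from the data and not from the design. The block moved no other number of members called by over 1.5 times. IDE196 and its DMSO libraries share no numbers, so no block was fitted there for the effect at each time. For the difference of the 24 h and 4 h effects a block within each arm, drug or DMSO, was fitted. No called difference was lost or turned sign with it. When 1 library was left out, the number called ran from 3 to 4 and from 4 to 7 in 92-1 with FHT-1015 at 4 and 24 h, from 0 to 1 and 2 to 3 in MEL202, 0 to 1 and 3 to 5 in MP41, and 4 to 5 at both times with IDE196. The 4 h change of MYC lay between 0.87 and 1.12 in MEL202 and between 0.73 and 0.81 in MP41.

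Values that turned sign were small or belonged to MXD3. With the stranded columns, MXD3 was -0.68 in 92-1 (FHT-1015, 24 h), -0.42 in MEL202 at 24 h, 0.15 in MP41 at 4 h and -0.018 with IDE196 at 4 h, and MAX was -0.0026 in 92-1 at 4 h of FHT-1015. With limma-voom, MXD3 was 0.010 and 0.080 in MP41 at 4 and 24 h and 0.086 with IDE196 at 24 h, MYCL was -0.0084 with IDE196 at 4 h, MGA was -0.016 with IDE196 at 24 h, the MXI1 effect in MP41 minus MEL202 was 0.15, and IDE196 minus FHT-1015 at 24 h was 0.038 for MXD1 and 0.13 for MXD4. With library size alone, MXD4 was 0.0020 in MEL202 at 4 h and 0.086 for MP41 minus 92-1 in DMSO, and MXD3 was 0.017 with IDE196 at 24 h, near its value in the fit of all 48 samples (0.020).

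Leaving out 1 library turned the sign of uncalled values only, over these ranges. MXD3 ran from -0.077 to 0.43 and -0.069 to 0.36 in 92-1 (FHT-1015, 4 and 24 h), from -0.23 to 0.13 and -0.46 to 0.079 in MP41, and from -0.18 to 0.17 with IDE196 at 24 h. MXD4 at 4 h ran from -0.042 to 0.44 in 92-1 and -0.26 to 0.075 in MEL202. MYCL ran from -0.81 to 0.012 and -0.27 to 0.066 in MEL202, from -0.076 to 0.20 in MP41 at 24 h and from -0.10 to 0.36 with IDE196 at 4 h. MGA ran from -0.10 to 0.82 in MEL202 at 4 h and from -0.075 to 0.15 with IDE196 at 24 h. The causes were not tested.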
